A study of Mus musculus with 9 samples.

Results

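The genes described here are those of the cGMP system that holds the mouse oocyte in meiotic arrest, together with both estrogen receptors, as measured in the cumulus cells around the oocyte. The list holds 6 genes: Nppc, Npr2, Impdh1, Impdh2, Esr1 and Esr2. Members were taken by symbol, as every probe set that the array annotation gives to 1 of them alone. This found 5 genes with 7 probe sets, of 18194 genes and 45101 probe sets in all. Impdh2 is not analysed here. Of the 5 genes, all 5 passed the filter on dim values through at least 1 probe set. The exception among probe sets was 1 of 3 for Esr1, which was dim on all 9 arrays.

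Oocytes of antral follicles are kept in meiotic prophase by cGMP that reaches them from the surrounding granulosa cells through gap junctions. C-type natriuretic peptide, encoded by Nppc and made mainly by mural granulosa cells, activates NPR2, a receptor guanylyl cyclase of cumulus cells, and the cGMP it makes inhibits the phosphodiesterase PDE3A in the oocyte, so that cAMP stays high. The IMPDH enzymes catalyse the rate-limiting step of guanine nucleotide synthesis and so supply the GTP from which cGMP is made. Estradiol acts through the nuclear receptors ESR1 and ESR2, of which ESR2 is the main form of granulosa cells, and in mouse cumulus cells in culture estradiol maintains NPR2.

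Cumulus cells of 3 genotypes were measured, with 3 arrays per genotype. DM mice lack both copies of Bmp15 and 1 copy of Gdf9 (Bmp15-/-Gdf9+/-), Bmp15-/- mice lack Bmp15 alone, and wildtype mice carry neither mutation. BMP15 and GDF9 are growth factors that the oocyte secretes. All animals were females of 4 to 5 months on a mixed B6/129 background, and all had received 5 IU of equine chorionic gonadotropin, which drives follicle growth, 48 hours earlier. Each sample pooled about 75 to 100 cumulus-oocyte complexes from the large antral follicles of 3 to 4 mice, collected with 5 µM milrinone, an inhibitor of PDE3, in all genotypes. No group carried the Gdf9 mutation alone, so DM against Bmp15-/- gives the effect of losing 1 Gdf9 copy only where Bmp15 is also missing. The arrays measured RNA of many cells at once. In such bulk samples fewer cells of a type and less RNA per cell cannot be told apart.

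All 9 arrays had similar distributions, with medians of 5.52 to 5.59 on the log2 scale, and arrays of 1 genotype correlated at 0.988 or more over all probe sets. The 9 granulosa lineage markers named on the array all lay above the 40th percentile of every array. Their summed linear signal was 24573 to 30664 in DM, 31092 to 31615 in Bmp15-/- and 32953 to 33791 in wildtype cells, a sum carried by its brightest members. Of these 9, 4 were called lower in DM against wildtype (Inhba -0.89, Nr5a1 -0.85, Hsd17b1 -0.81 and Foxl2 -0.78) and 1 higher (Amhr2 0.72), and none was called in Bmp15-/- against wildtype (limma, 2 at an unadjusted p under 0.05). Among all genes tested, 28.1 percent were called in DM against wildtype, 18.2 percent lower, and 9.07 percent were called in Bmp15-/- against wildtype. Of the 2 cumulus markers named, Slc38a3 was called higher in DM against wildtype (1.24), and Amh, which the granulosa list also holds, was not (-0.09). The 2 cumulus markers summed to 437 to 629 in DM, 220.0 to 321 in Bmp15-/- and 256 to 293 in wildtype samples. Bmp15, an oocyte transcript, read 5.05 to 5.09 in DM and 5.08 to 5.10 in Bmp15-/- samples with probe set 1420006_at. In the wildtype samples it read 5.10, 9.58 and 8.41, so it checks the genotype only where oocyte RNA was carried over. The summed signal of 17 oocyte markers was 672 to 973 in DM samples, 826, 2223 and 763 in Bmp15-/- samples and 909, 2316 and 1060 in wildtype samples. Array 2 of Bmp15-/- and array 2 of wildtype have the highest of these sums, and values without both are given below. By single transcripts wildtype array 3 also carried oocyte RNA: Gdf9 read 4.67, 5.30 and 5.63 in DM, 5.70, 6.59 and 4.99 in Bmp15-/- and 5.03, 8.12 and 6.56 in wildtype samples. The signal of the 3' Gapdh control exceeded that of the 5' control by 0.87 ± 0.08 log2 units in DM, 0.70 ± 0.03 in Bmp15-/- and 0.56 ± 0.03 in wildtype samples (SD, n = 3 each), so this measure of RNA or amplification quality moved with genotype. The same difference for the beta-actin control was 1.85 to 2.12 in DM, 1.85 to 1.92 in Bmp15-/- and 1.87 to 1.90 in wildtype samples, and the genotypes overlapped.

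Of the 5 members, Npr2 and Esr1 passed the test in both mutants, and both were lower than in wildtype cells. Genes were called at an adjusted p under 0.05 (limma, Benjamini-Hochberg over the 13447 genes tested). In DM against wildtype 2 of 5 members were called, where 28.1 percent of all genes were called and 18.2 percent were called lower. Bmp15-/- against wildtype also had 2 of 5 called, against a background of 9.07 percent called and 5.78 percent called lower. In DM against Bmp15-/- 1 of 5 was called, Esr1, against 3.25 percent called and 1.61 percent called lower. Both mutants were set against the same 3 wildtype arrays, so their results are not independent of each other. Nppc, Impdh1 and Esr2 did not pass in any comparison.

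Promoter windows are shown for the 2 genes that passed, as the sequence around their annotated start sites. They come from RefSeq on build GRCm38.p6, run from 250 bases before to 50 bases after the annotated start, and are on the plus strand. The table held 7 such windows for the 5 genes, and all 5 matched by symbol. Capitals mark matches to GGCGCC, a GC-rich element that SMAD proteins can bind, or to GGTCA, the core repeat of the estrogen response element. The Npr2 window is chr4:43631685-43631984, and those of Esr1 are chr10:4611739-4612038 and chr10:4709908-4710207.
Npr2: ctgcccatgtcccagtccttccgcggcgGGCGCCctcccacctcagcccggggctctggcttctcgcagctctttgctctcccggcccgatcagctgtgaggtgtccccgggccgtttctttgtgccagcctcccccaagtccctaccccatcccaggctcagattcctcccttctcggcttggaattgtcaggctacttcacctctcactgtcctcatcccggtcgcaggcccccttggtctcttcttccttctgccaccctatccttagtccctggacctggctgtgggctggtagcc
Esr1 promoter 1: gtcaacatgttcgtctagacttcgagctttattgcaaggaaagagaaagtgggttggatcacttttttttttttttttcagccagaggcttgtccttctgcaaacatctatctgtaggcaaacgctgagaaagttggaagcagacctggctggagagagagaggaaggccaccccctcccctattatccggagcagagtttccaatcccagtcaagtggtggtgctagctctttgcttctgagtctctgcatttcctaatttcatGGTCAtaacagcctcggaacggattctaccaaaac
Esr1 promoter 2: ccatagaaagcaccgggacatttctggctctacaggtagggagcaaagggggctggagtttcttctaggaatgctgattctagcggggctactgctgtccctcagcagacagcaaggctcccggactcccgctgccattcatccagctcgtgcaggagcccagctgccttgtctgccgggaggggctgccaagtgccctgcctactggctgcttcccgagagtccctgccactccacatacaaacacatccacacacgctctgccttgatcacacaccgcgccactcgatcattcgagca

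Motifs were searched on both strands of all 32851 promoter windows of the table. The full estrogen response element, which is GGTCA, then NNN, then TGACC, was found in 0.07 percent of windows and in none of the 7 of these genes. GGTCA occurred in 40.5 percent of all windows, in promoter 1 of Esr1 at position 16 from the start site, and in that of Esr2 at positions -238 and -75. GGCGCC occurred in 11.9 percent of windows, in that of Npr2 at position -222, of Nppc at 16 and of Impdh1 promoter 2 at -33. Promoter 2 of Esr1 held neither motif. The full element contains the core repeat, and a match is a description of the letters, not a binding site.

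Nppc encodes the ligand of the system. Its log2 level with probe set 1422790_at was 7.65, 7.82 and 6.79 in DM samples 1 to 3, 7.77, 7.52 and 7.73 in Bmp15-/- samples, and 8.00, 7.73 and 7.98 in wildtype samples. The groups overlapped, and DM sample 3 lay well below the other 8. The change was -0.48 in DM against wildtype (95% interval -0.998 to 0.035, adjusted p = 0.1501) and -0.23 in Bmp15-/- against wildtype (-0.75 to 0.29, adjusted p = 0.563). The difference of DM from Bmp15-/- was -0.25 (adjusted p = 0.593). A single DM sample decided how large the DM change was. Without DM sample 3 the difference from wildtype was -0.17, and without DM sample 2 it was -0.68 and was called (limma, adjusted p = 0.0486). Mural granulosa cells are the main known source of Nppc. The summed signal of the 3 mural granulosa markers named on the array was 340 to 610 in DM, 379 to 440 in Bmp15-/- and 836 to 906 in wildtype samples. That sum is carried by Kitl, with log2 changes of -1.31 in DM and -1.54 in Bmp15-/- against wildtype, both called. Cd34 went the other way, with 1.27 in DM (called) and 0.56 in Bmp15-/- (not called), and Cyp11a1 had 0.30 and 0.36, neither called, so the mural markers did not move together. Their part in the Nppc values was not tested.

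Npr2, the receptor that makes cGMP in cumulus cells, was lower in both mutants by similar amounts. Probe set 1427191_at gave 10.75, 10.77 and 10.87 in DM samples, 10.71, 10.75 and 10.84 in Bmp15-/- samples, and 11.14, 11.37 and 11.26 in wildtype samples. All 6 mutant samples lay below all 3 wildtype samples, and the 2 mutant genotypes overlapped throughout. Means were 10.80 ± 0.06 in DM, 10.77 ± 0.07 in Bmp15-/- and 11.25 ± 0.12 in wildtype cells (SD, n = 3 each). With limma, Npr2 was lower than in wildtype by 1.37-fold in DM cells (log2 change -0.46 ± 0.09 SE, 95% interval -0.66 to -0.26, adjusted p = 0.00504) and by 1.40-fold in Bmp15-/- cells (-0.49 ± 0.09, interval -0.69 to -0.29, adjusted p = 0.0122).

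No difference in Npr2 was detected between the 2 mutants, which differ by 1 copy of Gdf9. The difference of DM from Bmp15-/- cells was 0.03 log2 units, with a 95% interval of -0.17 to 0.23 and an adjusted p of 0.889 (limma), so a difference of the size seen against wildtype lies outside that interval. The signal of its probe set lay in every sample between the 93.9th and the 96.0th percentile of all probe sets of its array. Falls of this size were not rare, since 14.4 percent of all genes fell as much or more in DM against wildtype and 6.72 percent in Bmp15-/- against wildtype. Non-overlap by itself was common: 27.4 percent of all genes had all DM samples below all wildtype samples, and 23.4 percent had all Bmp15-/- samples below them.

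Each result on Npr2 was also computed without 1 array at a time. The difference of DM from wildtype was called in all 9 such fits, with adjusted p between 0.00794 and 0.0233. In Bmp15-/- against wildtype the call was lost without wildtype sample 2, where the change was -0.43 (limma, adjusted p = 0.0517). Without wildtype sample 2 and Bmp15-/- sample 2 together, the arrays with the highest summed oocyte markers, it was -0.42 (adjusted p = 0.134), while DM against wildtype was still called (adjusted p = 0.0414).

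**Figure D1:**
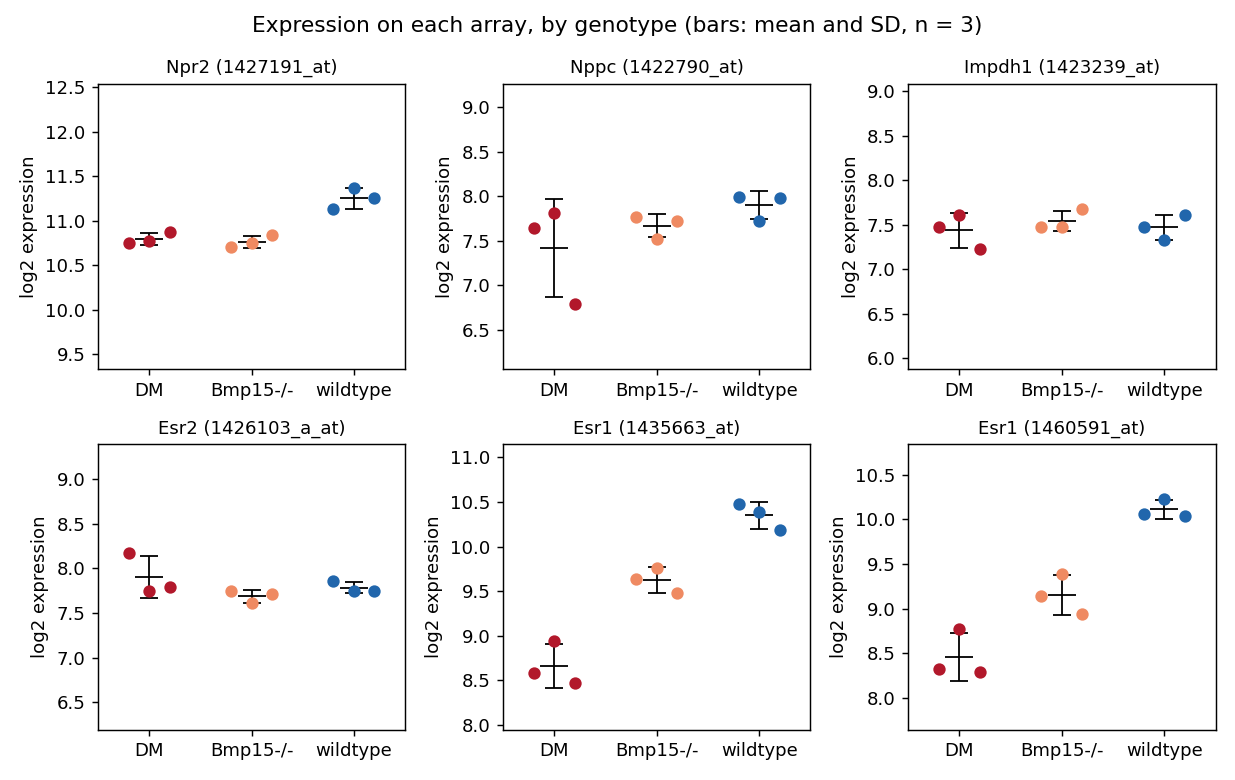
Log2 expression values of the 6 probe sets that passed the dim filter, each point an array and each bar the mean with the SD of 3 arrays, with DM, Bmp15-/- and wildtype from left to right in each panel. All DM and Bmp15-/- points of Npr2 lie below the wildtype points, and the 3 genotypes of Esr1 1435663_at form separate steps.

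Impdh1, which encodes the IMPDH enzyme measured here, did not differ by genotype beyond its spread. Its values with probe set 1423239_at were 7.47, 7.61 and 7.22 in DM, 7.47, 7.47 and 7.67 in Bmp15-/-, and 7.47, 7.33 and 7.61 in wildtype samples. The 3 groups overlapped fully, and 4 arrays hold exactly the same value. Changes were -0.03 in DM against wildtype (95% interval -0.31 to 0.24, adjusted p = 0.871), 0.07 in Bmp15-/- against wildtype (-0.20 to 0.35, adjusted p = 0.755) and -0.10 in DM against Bmp15-/- (-0.38 to 0.17, adjusted p = 0.688), all from limma. Such identical values are frequent in the deposited table, where 45.9 percent of probe sets hold the same value on at least 2 arrays and 6.33 percent on at least 4.

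Esr1, the estrogen receptor alpha gene, was the member with the largest change, and its level was lowest in DM, intermediate in Bmp15-/- and highest in wildtype cells. Probe set 1435663_at gave 8.58, 8.94 and 8.47 in DM samples, 9.64, 9.76 and 9.48 in Bmp15-/- samples, and 10.48, 10.39 and 10.18 in wildtype samples. No DM sample reached the lowest Bmp15-/- sample, and no Bmp15-/- sample reached the lowest wildtype sample. By comparison, all DM samples lay below all Bmp15-/- samples in 12.5 percent of all genes. Means were 8.66 ± 0.25 in DM, 9.63 ± 0.14 in Bmp15-/- and 10.35 ± 0.15 in wildtype cells (SD, n = 3 each).

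Against wildtype, Esr1 was lower by 3.22-fold in DM cells, a log2 change of -1.69 ± 0.14 (SE, 95% interval -2.00 to -1.37, limma adjusted p = 8.53e-05). In Bmp15-/- cells it was lower by 1.65-fold, with a log2 change of -0.72 ± 0.14 (interval -1.04 to -0.41, adjusted p = 0.0147). DM was below Bmp15-/- by 1.95-fold (-0.96 ± 0.14, interval -1.27 to -0.65, adjusted p = 0.00959), so the 2 mutants differed from each other by the test of that difference itself. Of all genes tested, 0.625 percent fell as much or more in DM against wildtype, 0.483 percent in DM against Bmp15-/- and 2.71 percent in Bmp15-/- against wildtype. Ranked by p among the 13447 genes, Esr1 stood at 70, 77 and 434 in those comparisons.

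A further probe set, 1460591_at, traces to the same source sequence as 1435663_at in the annotation and is not an independent measurement. It read 8.33, 8.77 and 8.29 in DM samples, 9.14, 9.39 and 8.94 in Bmp15-/- samples, and 10.06, 10.23 and 10.04 in wildtype samples. Again the groups did not overlap. In the fit over 27991 probe sets it was called in DM against wildtype (-1.65, limma adjusted p = 0.000285), where 24.2 percent of probe sets were called, and in Bmp15-/- against wildtype (-0.96, adjusted p = 0.0115), where 6.33 percent were. Its difference between DM and Bmp15-/- was -0.69 and was not called (adjusted p = 0.0615), in a comparison with 1.93 percent of probe sets called. Probe set 1421244_at for Esr1 read 3.67 to 3.97 on the 9 arrays, below the 40th percentile of each, and was not tested.

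The DM results on Esr1 held in every fit without 1 array, with adjusted p of 6.33e-05 to 0.000759 against wildtype and 0.00363 to 0.0475 against Bmp15-/-. The call in Bmp15-/- against wildtype was lost without wildtype sample 1 (limma, adjusted p = 0.0567), without wildtype sample 2 (0.0598) and without Bmp15-/- sample 3 (0.0624). Without sample 2 of both wildtype and Bmp15-/- the change in Bmp15-/- was -0.77 (adjusted p = 0.0972) and that of DM against Bmp15-/- was -0.89 (adjusted p = 0.1002), and neither was called. DM against wildtype was still called there (adjusted p = 0.00186). Direction was unchanged in all of these fits.

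**Figure D2:**
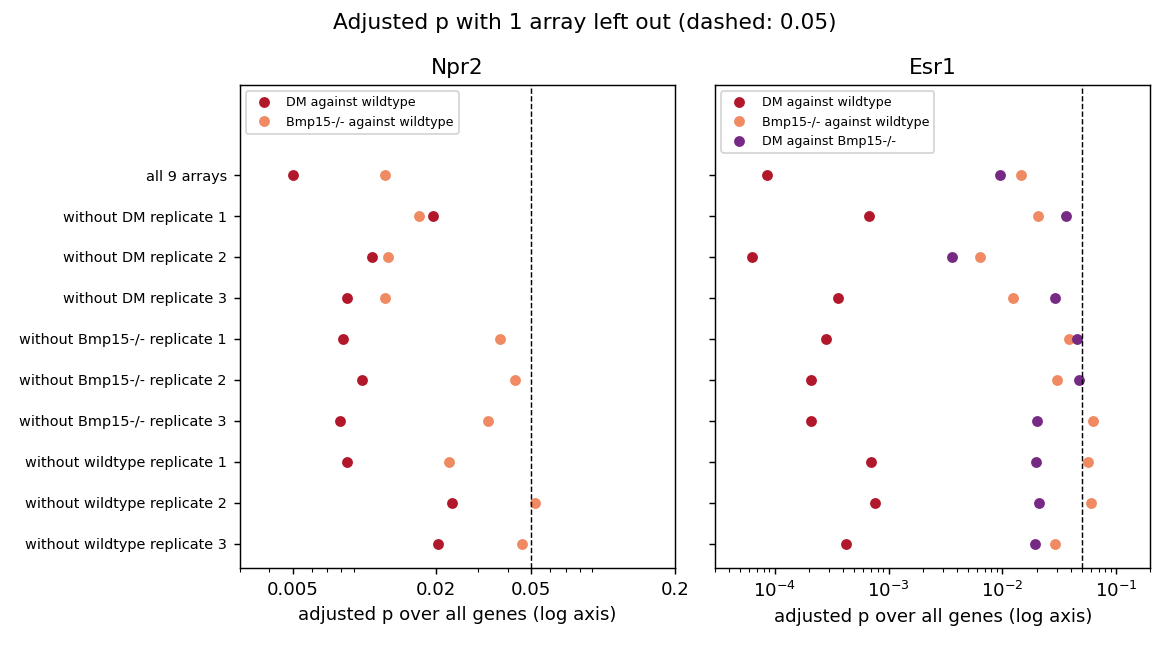
Adjusted p (x, log axis) of the log2 changes of Npr2, against wildtype, and of Esr1, in all 3 comparisons, with all 9 arrays and with 1 array left out in turn (y), the dashed line marking 0.05. All DM points lie left of the line for both genes, and in Bmp15-/- against wildtype 1 point of Npr2 and 3 of Esr1 lie right of it.

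Theca, stroma and surface epithelium of the ovary also express ESR1, so their markers are given beside it. The summed signal of 9 theca and stroma markers was 967 to 1256 in DM, 728 to 787 in Bmp15-/- and 564 to 688 in wildtype samples, which is the opposite order to Esr1. Of the 5 that were tested, 3 were called higher and 1 lower in DM against wildtype, where 28.1 percent of all genes were called. Acta2 was higher by 2.09 log2 units, Pdgfra by 1.57 and Col1a1 by 0.54, while Pdgfrb was lower, at -0.37. In Bmp15-/- against wildtype Pdgfra was called higher (0.92) and Pdgfrb lower (-0.43). Pdgfra had the highest group mean of the 9 in each genotype, so it weighs most in their sum. Cyp17a1, Col1a2, Lum and Dcn, defining genes of these cells, were dim. The 8 surface epithelium markers summed to 1036 to 1075 in DM, 915 to 1162 in Bmp15-/- and 701 to 774 in wildtype samples, with Krt19, Msln and Lgr5 dim. Krt8 had the highest group mean of the 8 in each genotype. Of the 5 tested, Krt18 (1.17) and Krt8 (0.55) were called higher in DM against wildtype. Upk3b (0.28), Upk1b (0.07) and Krt7 (0.03) were not. In Bmp15-/- against wildtype only Krt8 was called (0.62), where 9.07 percent of all genes were. Summed over 5 endothelial markers the signal was 316 to 346 in DM, 317 to 354 in Bmp15-/- and 346 to 350 in wildtype samples, and over 6 immune markers 235 to 285, 231 to 283 and 218 to 244 in the same order. The 2 erythroid markers gave 45.8 to 58.0 in DM, 50.7 to 96.7 in Bmp15-/- and 170.0 to 298 in wildtype samples. That sum is nearly all Alas2 (log2 changes -2.59 in DM and -1.98 in Bmp15-/-, both called), while the globin gene Hba-a1 was dim, at means of 4.10 in DM, 4.15 in Bmp15-/- and 3.90 in wildtype samples. The part of these markers, of the Gapdh 3' to 5' difference and of oocyte RNA in the Npr2 and Esr1 results was not tested.

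Esr2, estrogen receptor beta, showed no difference beyond its spread. Probe set 1426103_a_at gave 8.17, 7.75 and 7.79 in DM samples, 7.75, 7.61 and 7.71 in Bmp15-/- samples, and 7.85, 7.75 and 7.75 in wildtype samples. The groups overlapped, with DM sample 1 the highest of the 9. Changes were 0.12 in DM against wildtype (95% interval -0.14 to 0.39, adjusted p = 0.476), -0.10 in Bmp15-/- against wildtype (-0.36 to 0.17, adjusted p = 0.651) and 0.22 in DM against Bmp15-/- (-0.05 to 0.48, adjusted p = 0.344), all from limma. A fall of the size of that of Esr1 in DM lies outside the interval of Esr2, but the difference between the 2 genes' changes was not tested.

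**Figure D3:**
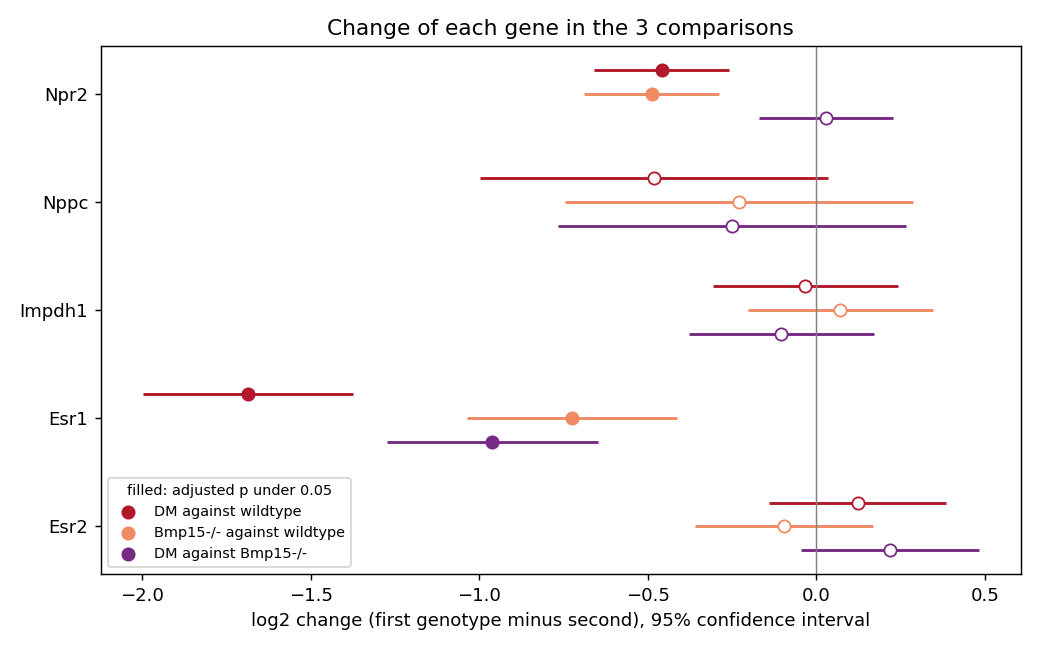
Log2 changes of the 5 genes with 95% intervals in DM against wildtype, Bmp15-/- against wildtype and DM against Bmp15-/-. Intervals of Npr2 lie below 0 in both comparisons with wildtype and those of Esr1 in all 3, while the intervals of Nppc, Impdh1 and Esr2 include 0.

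The members were also set against each other over the 9 arrays. Pearson r was 0.708 between Npr2 and Esr1, 0.699 between Nppc and Impdh1, 0.649 between Nppc and Esr1 and -0.410 between Esr1 and Esr2, over points that share arrays and genotype. The 3 tested genes whose 9 values were most like those of Esr1 were Bnip3 (r = 0.996), a mitochondrial protein that acts in mitophagy, Pkm (r = 0.994), the glycolytic enzyme pyruvate kinase, and Pdk1 (r = 0.992), the kinase that inhibits pyruvate dehydrogenase. Bnip3 averaged 9.83 in DM, 11.00 in Bmp15-/- and 11.87 in wildtype cells on the log2 scale, Pkm 10.69, 11.54 and 12.21, and Pdk1 10.11, 10.87 and 11.56, in the same order. All 3 were picked for their high r with Esr1, so their sharing its stepwise order of group means follows from that choice.

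For Npr2 the most alike were Clic1 (r = 0.992), Itga1 (0.975), the integrin alpha 1 subunit, and Stat2 (0.969), a transcription factor of interferon signalling. Each, picked in the same way, had nearly equal group means in both mutants, such as 10.18 in DM and 10.16 in Bmp15-/- against 10.54 in wildtype for Clic1. Nppc was most like Chst14 (r = 0.985), Nipsnap3b (0.978) and Fuom (0.976). Impdh1 was most like Car3 (0.974), Phex (0.956) and Nceh1 (0.946), and Esr2 most like 1700102P08Rik (0.932), 3830406C13Rik (0.932) and Nckap1l (0.922). These r values are the highest among all genes tested and describe the pattern over 9 arrays only.

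Other genes of the pathways were taken from 6 lists of 84 genes, of which 74 were named on the array and 64 were tested. In DM against wildtype 9 were higher and 11 lower, which is 31.3 percent of those tested against 28.1 percent of all genes. Bmp15-/- against wildtype had 2 higher and 3 lower (7.81 percent, against 9.07), and DM against Bmp15-/- had 2 higher and none lower (3.13 percent, against 3.25). These shares lie near the background in all 3 comparisons. They count the brightest probe set of each gene. Other probe sets of some genes differed, and several of these are given with the genes.

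Of 5 tested genes for natriuretic peptides, guanylyl cyclases and their processing, 1 was higher in DM and 1 lower in Bmp15-/- than in wildtype. Of all genes, 28.1 and 9.07 percent were called in these comparisons. Furin, a protease that processes prohormones including that of CNP, was 1.27-fold higher in DM (adjusted p = 0.0137). Gucy1a1, a subunit of the soluble, nitric oxide-sensitive guanylyl cyclase, averaged 9.37 ± 0.33 in DM, 7.50 ± 0.80 in Bmp15-/- and 9.70 ± 0.09 in wildtype cells (SD, n = 3 each). It was 4.60-fold lower in Bmp15-/- than in wildtype (limma, adjusted p = 0.00593) and 3.66-fold higher in DM than in Bmp15-/- (adjusted p = 0.0223). The other tested probe set of Gucy1a1 did not show this, with a change of 0.10 in Bmp15-/- against wildtype (adjusted p = 0.659). The call in DM against Bmp15-/- was lost without DM sample 1 (adjusted p = 0.0634), DM sample 3 (0.0602) or Bmp15-/- sample 3 (0.0530). Gucy1b1, the partner subunit, had changes of 0.12 in DM and -0.50 in Bmp15-/- against wildtype and was not called. Npr1, Npr3, Nppa and Gucy1a2 did not pass the dim filter and were not tested. Of these, Gucy1a2 was not dim on every DM array. It read 4.67 to 6.40 in DM, 4.17 to 4.43 in Bmp15-/- and 3.99 to 4.38 in wildtype samples. The median change of the list was -0.00 in DM and -0.25 in Bmp15-/- against wildtype, where all genes had -0.06 and -0.04.

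Among 13 genes of cGMP breakdown, effect and export, 4 were higher and 1 lower in DM against wildtype, and 1 was higher in Bmp15-/-. That is 38.5 percent in DM and 7.69 percent in Bmp15-/-, where 28.1 and 9.07 percent of all genes were called. Pde5a, a cGMP-specific phosphodiesterase, averaged 8.79 ± 0.49 in DM against 7.70 ± 0.19 in wildtype (2.12-fold, limma adjusted p = 0.0126). Its other tested probe set had a change of 0.21 (adjusted p = 0.619). Pde2a, which cGMP activates, was 1.35-fold higher in DM (adjusted p = 0.00761) and 1.28-fold higher in Bmp15-/- (adjusted p = 0.0409). Pde9a, another cGMP-specific phosphodiesterase, was 2.01-fold lower in DM (adjusted p = 0.00837). Abcc5, a transporter that exports cyclic nucleotides, was 1.53-fold higher in DM than in wildtype (adjusted p = 0.00260) and 1.65-fold higher than in Bmp15-/- (adjusted p = 0.00912). Both are on the brightest of its 7 tested probe sets. Of the other 6, 2 were called in DM against wildtype, 2 were near 0 there (-0.05 and -0.03) and none was called in DM against Bmp15-/- (-0.12 to 0.54). The median over the probe sets of Abcc5 was not called in either comparison, at 0.055 against wildtype (adjusted p = 0.779) and 0.092 against Bmp15-/- (adjusted p = 0.736). Prkg2, cGMP-dependent protein kinase 2, was 1.52-fold higher in DM (adjusted p = 0.0394). Calls of 2 of these genes rested on single arrays. That of Pde2a in Bmp15-/- was lost without DM sample 1 (adjusted p = 0.0532), without Bmp15-/- sample 2 (0.128) or 3 (0.133), and without wildtype sample 1 (0.0909), 2 (0.106) or 3 (0.128). That of Prkg2 in DM was lost without DM sample 3 (0.0990), without Bmp15-/- sample 1 (0.0511) or 3 (0.0529), and without wildtype sample 1 (0.135), 2 (0.0696) or 3 (0.0629). The list's median change was 0.26 in DM and -0.01 in Bmp15-/- against wildtype, where all genes had -0.06 and -0.04.

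Of 18 tested genes of purine and guanine nucleotide supply, 6 were lower and 1 higher in DM against wildtype, and 2 were lower in Bmp15-/-. That is 38.9 percent in DM and 11.1 percent in Bmp15-/-, where 28.1 and 9.07 percent of all genes were called. Hprt, which salvages guanine and hypoxanthine, averaged 9.59 ± 0.25 in DM, 9.39 ± 0.32 in Bmp15-/- and 10.44 ± 0.04 in wildtype cells. It was 1.81-fold lower in DM (limma, adjusted p = 0.00559) and 2.08-fold lower in Bmp15-/- (adjusted p = 0.00735). Ampd2, AMP deaminase, was lower in both mutants, with log2 changes of -0.47 in DM (adjusted p = 0.0213) and -0.67 in Bmp15-/- (adjusted p = 0.0135). Its other tested probe set was also called in both, at -0.48 (limma adjusted p = 0.0220) and -0.59 (adjusted p = 0.0277). Also in DM, Nt5c2, a nucleotidase of IMP and GMP, was called at -0.59 (adjusted p = 0.00166), Prps2, which makes the ribose precursor PRPP, at -0.48 (0.00602) and Nme1, a nucleoside diphosphate kinase, at -0.45 (0.00758). The other probe set of Nme1 had a change of -0.08 (adjusted p = 0.546), and the median over both was -0.26 (adjusted p = 0.0458). Gmps, the enzyme that follows IMPDH on the way to GMP, was at -0.36 (adjusted p = 0.0240), and it is named after its value was seen. Paics, of de novo purine synthesis, was higher, at 0.41 (adjusted p = 0.0105). The other tested probe sets of Gmps (-0.19 and -0.21) and of Paics (0.24 and 0.07) were not called. Without single arrays, the call of Ampd2 in DM was lost for DM sample 1 (adjusted p = 0.0513) and wildtype samples 2 (0.0767) and 3 (0.0788), and in Bmp15-/- for Bmp15-/- sample 3 (0.0530) and wildtype samples 2 (0.0598) and 3 (0.0543). That of Gmps was lost for DM sample 1 (0.0762) and wildtype samples 1 (0.0771) and 2 (0.0846). The list's median change was -0.20 in DM and -0.06 in Bmp15-/- against wildtype, where all genes had -0.06 and -0.04. None of the 18 was called in DM against Bmp15-/- by limma, with 5 at an unadjusted p under 0.05. Another probe set of Prps2 was called there (-0.58, adjusted p = 0.0363) and in Bmp15-/- against wildtype (-0.56, adjusted p = 0.0223). In DM against wildtype that probe set was called at -1.14 (limma adjusted p = 0.000298). Atic was not called on its brightest probe set in DM against wildtype (0.19), but another was called lower (-0.46, limma adjusted p = 0.0202). Atic is named after its value was seen.

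Estrogen synthesis and turnover had 3 tested genes of 8 listed, and 2 were lower in DM against wildtype. Of all genes, 28.1 percent were called in DM against wildtype, 18.2 percent lower, and 9.07 percent were called in Bmp15-/-. The aromatase gene Cyp19a1 was listed but not named on the array, so it was not measured here. Hsd17b1, which reduces estrone to estradiol, averaged 11.06 ± 0.44 in DM against 11.87 ± 0.02 in wildtype (1.75-fold lower, limma adjusted p = 0.00935). Hsd17b7, of estradiol and cholesterol synthesis, was 1.99-fold lower (adjusted p = 0.00279). Its other tested probe sets had changes of -0.38 and 0.05, which were not called. None of the 3 was called in Bmp15-/- against wildtype by limma, with 1 at an unadjusted p under 0.05. Of 13 estrogen receptor relatives and coregulators, 1 was higher in DM, the coactivator Ncoa2 (1.23-fold, adjusted p = 0.0188), and none was called in Bmp15-/- against wildtype, with 3 at an unadjusted p under 0.05 (limma). This holds for the brightest probe set of each gene. In the fit over probe sets, and chosen after their values were seen, 1 of 5 for the corepressor Nrip1 was called higher in Bmp15-/- against wildtype (1.80, adjusted p = 0.00867) and lower in DM against Bmp15-/- (-1.51, adjusted p = 0.0331). Another probe set of Nrip1 was called higher in DM against wildtype (0.37, adjusted p = 0.0419). Likewise 1 of 4 for the Mediator subunit Med1 was called lower in DM (-0.79, adjusted p = 0.00111) and in Bmp15-/- (-0.68, adjusted p = 0.00869) against wildtype. The other 3 tested probe sets of Ncoa2 were not called in DM (-0.10 to 0.14). Its call on the brightest was lost without wildtype sample 1 (adjusted p = 0.0511), 2 (0.0562) or 3 (0.0592).

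Genes known to respond to estrogen went in both directions. Of 12 tested, 2 were higher and 2 lower in DM against wildtype, and 1 was higher in Bmp15-/-. That is 33.3 percent in DM and 8.33 percent in Bmp15-/-, where 28.1 and 9.07 percent of all genes were called. Cxcl12, a chemokine, averaged 6.63 ± 0.27 in DM, 6.39 ± 0.30 in Bmp15-/- and 5.52 ± 0.12 in wildtype cells. It was 2.15-fold higher in DM (limma, adjusted p = 0.00185) and 1.82-fold higher in Bmp15-/- (adjusted p = 0.0180). Its other tested probe set had changes of -0.05 and -0.07, which were not called. Myc, a transcription factor that promotes growth, was 1.96-fold higher in DM (adjusted p = 0.0133). Igf1, a growth factor of granulosa cells, was 1.74-fold lower in DM (adjusted p = 0.00286), and all 4 of its tested probe sets were lower. Ccnd2, cyclin D2, was 1.35-fold lower in DM (adjusted p = 0.0177). In the fit over probe sets, others of Ccnd2 were also called lower in DM, by up to -1.08 (limma adjusted p = 0.00800). Another was not called (-0.31, adjusted p = 0.169). Without single arrays, the call of Cxcl12 in Bmp15-/- was lost for Bmp15-/- sample 3 (adjusted p = 0.0543) and wildtype samples 1 (0.0580) and 2 (0.0708), and that of Ccnd2 in DM for DM sample 1 (0.0564) and wildtype samples 2 (0.0543) and 3 (0.0557). Greb1, an estrogen receptor target in human breast cancer cells, was not called, with changes of -0.01 in DM and -0.06 in Bmp15-/-. Other probe sets of 2 genes that were not called were called in the fit over probe sets, and are named after their values were seen: 1 of Stc2 was lower in DM (-0.83, adjusted p = 0.00538) and in Bmp15-/- (-1.08, adjusted p = 0.00681), and 1 of Xbp1 called in both was higher in DM (0.31, adjusted p = 0.0295) and in Bmp15-/- (0.36, adjusted p = 0.0425). Pgr, the progesterone receptor gene, did not pass the dim filter and was not tested. It read 4.95 to 5.09 in DM, 4.73 to 4.74 in Bmp15-/- and 4.21 to 4.39 in wildtype samples.

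**Figure D4:**
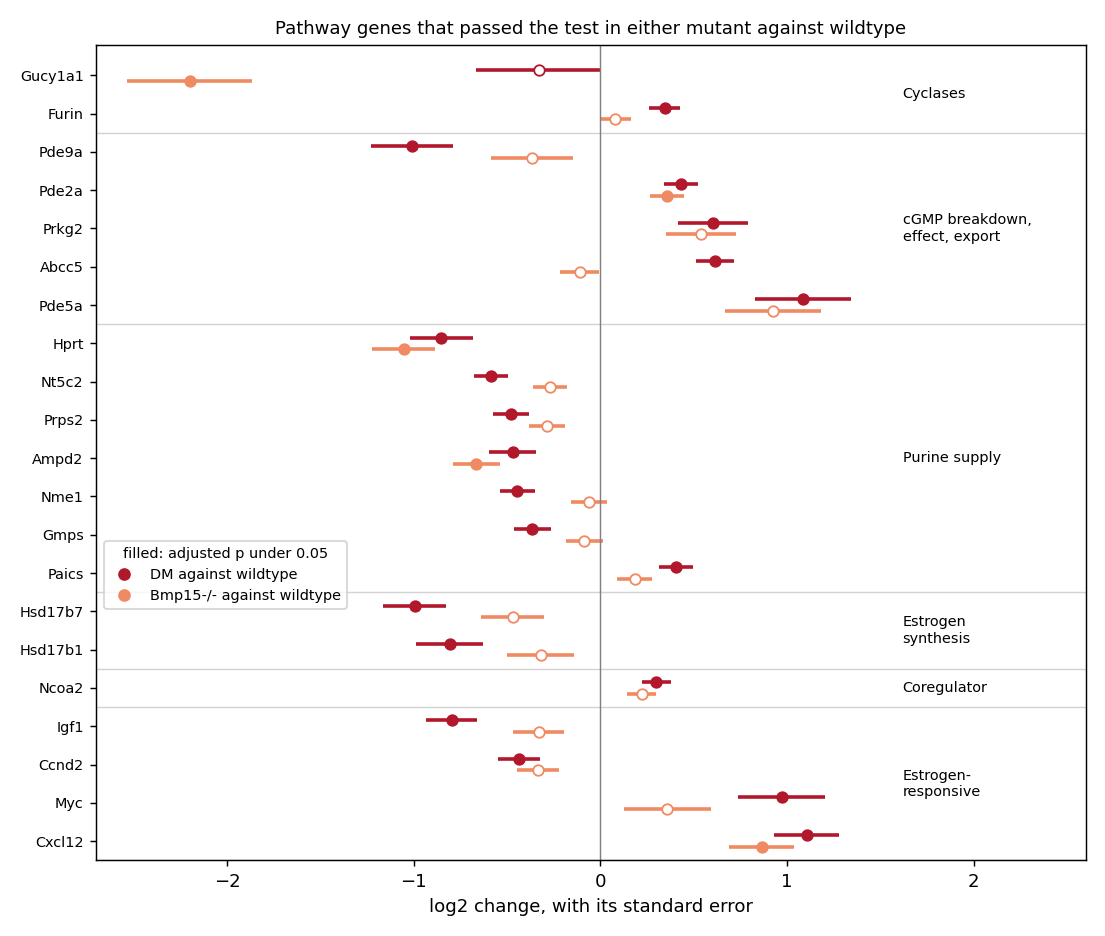
Log2 changes, with standard errors, of the 21 pathway genes called in DM or Bmp15-/- against wildtype, grouped by list, with DM above Bmp15-/- for each gene and filled points for an adjusted p under 0.05. Genes lie on both sides of 0, from Gucy1a1 at -2.20 in Bmp15-/- to Cxcl12 at 1.11 in DM.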

How the data were processed

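Cumulus cell RNA (10 ng per sample, amplified by 2 cycles of cDNA and in vitro transcription, per the labels' protocols) was measured on 9 arrays of 45101 probe sets, 3 per genotype. The log2 values are those the authors deposited. RMA and affy are named per the submitters' processing notes, with no version stated there. RMA compresses changes of dim transcripts, and the number of arrays limits the precision.

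Of the probe sets, 34958 carried 1 gene in the platform annotation, 932 several and 9211 none. For each of 18194 genes the probe set of highest mean was used. Genes above the 40th percentile of their array on at least 3 of 9 arrays were tested (13447), with limma 3.58.1 (lmFit, eBayes) in R 4.3.3, genotype as the only term, all arrays in 1 fit with 6 residual degrees of freedom, and Benjamini-Hochberg adjustment at 0.05. Changes of all genes had medians of -0.06 (DM), -0.04 (Bmp15-/-) and -0.03 (DM against Bmp15-/-). A second fit used 27991 probe sets. The script was tested on simulated data.

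Members and lists were chosen with earlier results of these data known. From each list, called genes were named, up to 5 per comparison by smallest p, and for each member the 3 genes of highest Pearson r. Replicate numbers were not used to pair arrays in the reported fit, and whether they mark pairs was not tested. Deviations from the genotype means correlated at -0.08 to 0.26 between same-numbered arrays, with 2 of 9 pairs above 0.1. Between arrays of other numbers they correlated at -0.20 to 0.17. The highest value was that of wildtype sample 2 with Bmp15-/- sample 2, and 4 of 9 arrays matched best with their own number. Replicates were independent collections, each a pool of mice, per the series' design text. Alternatives covered the dim filter, probe set choice, normalization, a floor, the variance model, arrays in the fit, array weights, a replicate block and arrays left out. Figures used matplotlib 3.10.9 and tables version 1.17.8 of data.table.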

Additional observations from a re-analysis of the deposited data

How the results depend on the processing

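Members were recomputed under 19 alternatives, giving 285 values, of which 268 kept direction and side of the threshold, 7 lost the call, 1 gained it and 9 changed sign, all 9 for changes that were not called. Without sample 2 of wildtype and of Bmp15-/- together, chosen after seeing the data, no member was called in Bmp15-/- against wildtype (2 at an unadjusted p under 0.05, limma) or in DM against Bmp15-/- (1), member probe sets called were 0 in both (3 and 2 unadjusted), pathway genes called were 11 in DM against wildtype, 1 in Bmp15-/- against wildtype and 0 in DM against Bmp15-/- (9 unadjusted), and genes called were 2211, 166 and 11 in that order. With only the 2 genotypes compared in the fit, genes called were 1894 in Bmp15-/- against wildtype (1219 otherwise) and 117 in DM against Bmp15-/- (437 otherwise), pathway genes 10 and 1 (5 and 2 otherwise), and member probe sets 0 in DM against Bmp15-/- (2 unadjusted). Array weights gave 2350 genes and 11 pathway genes in Bmp15-/- against wildtype. Member probe sets called in DM against Bmp15-/- were 1 in the reported fit and 2 with the stricter filter, quantile normalization, the trend and robust prior, array weights and the replicate block. The fit with replicate number as a block called 3587 genes in DM and 1084 in Bmp15-/- against wildtype and 360 in DM against Bmp15-/-, kept every member call, and moved Pde2a in Bmp15-/- to an adjusted p of 0.0680. The median over probe sets gave 1 pathway gene in DM against Bmp15-/- and turned Gucy1a1 to 0.10 in Bmp15-/- against wildtype and -0.046 in DM against Bmp15-/-, and Ncoa2 to -0.036 in DM. It also ended the calls in DM against wildtype of Abcc5 (0.055, and 0.092 against Bmp15-/-), Pde5a (0.21), Hsd17b7 (-0.038), Gmps (-0.13), Paics (0.24) and Ccnd2 (-0.34). Over the called pathway genes 444 of 508 values kept their call and 61 lost it. Quantile normalization turned Esr2 to 0.030 in Bmp15-/- and Impdh1 to 0.086 in DM, and called 1738 genes higher and 1858 lower in DM (1338 and 2442 otherwise) and 590 higher and 520 lower in Bmp15-/- (442 and 777 otherwise). Leaving out 1 array at a time turned the sign of 6 changes that were not called: Esr2 ranged over -0.013 to 0.20 and Impdh1 over -0.12 to 0.074 (0.04 without wildtype sample 3) in DM against wildtype, Impdh1 over -0.00024 to 0.14 in Bmp15-/- against wildtype, and Npr2 over -0.0073 to 0.067, Nppc over -0.45 to 0.062 and Impdh1 over -0.19 to 0.0028 in DM against Bmp15-/-. Over the same fits, genes called ranged over 2648 to 4157 in DM and 445 to 1663 in Bmp15-/- against wildtype and 105 to 922 in DM against Bmp15-/-. Members called ranged over 2 to 3, 0 to 2 and 1 to 1 in the same order, member probe sets over 3 to 3, 0 to 3 and 0 to 2, and pathway genes over 15 to 23, 2 to 9 and 1 to 5. The cause of these changes was not tested. Leaving arrays out changes both how many arrays and which arrays are in the fit, and these cannot be told apart. With 3 arrays per genotype, the 95% intervals against wildtype of Nppc include a fall of the size of that of Npr2, and those of Impdh1 and Esr2 do not.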
